A study of Mus musculus with 18 samples.

Results

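The solute carriers, channels and related proteins that mark the segments of the nephron were described in kidney, and then in brain and gastrocnemius, of old male mice. The set held 33 genes, from the phosphate transporter Slc34a1 of the proximal tubule to the anion exchanger Slc26a4 of intercalated cells, taken by gene symbol from a deposited table of 34745 rows. Every library was made from polyA RNA of wild-type male C57BL/6 mice on a normal diet. Treatment began at 18 months of age and tissue was taken at 23 months. The SeMSNs groups received SeMSNs, the study's nano-selenium supplement, by gavage, and the old control groups received saline in the same way. The labels give the dose in conflicting ways, as 5 mg/kg of a 1 mg/mL preparation given 2 times every 2 days and as 10 mg/kg daily. Each tissue had 3 control and 3 SeMSNs libraries, 18 in all, and whether each library came from a separate mouse is not said in the labels, so the p-values below measure only the spread between these libraries.

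Urine is formed as filtrate passes along the nephron. The proximal tubule, in the cortex and outer stripe, takes back most of the filtered salt, glucose, phosphate, amino acids and bicarbonate and secretes organic anions. The thick ascending limb of the loop of Henle moves salt out of the tubule without water, which keeps the medulla concentrated, and the distal convoluted tubule takes up further sodium chloride. In the collecting duct, principal cells adjust sodium and water uptake, inner medullary cells carry urea, and intercalated cells handle acid and base. Because each transporter is largely kept to its own stretch of tubule, the levels of these genes in whole kidney RNA also follow how much cortex and medulla a sample holds. In bulk RNA, fewer cells of a segment and less RNA per cell cannot be told apart.

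Total counts ranged from 17357799 to 22146406 in the kidney libraries, from 17504652 to 18602670 in brain and from 18262444 to 20758114 in gastrocnemius. The kidney label fitted its markers: Lrp2, the endocytic receptor megalin of the proximal tubule, lay between 1436 and 1790.4 TMM-scaled CPM in the kidney libraries and at most at 2.02 CPM in the other tissues. The neuronal gene Snap25 was at 3.92 CPM in control kidney library 1 and at most at 0.415 CPM in the other 5. The muscle creatine kinase gene Ckm was at 189 CPM in control brain library 2 and at most at 0.326 CPM in the other brain libraries. In brain, SeMSNs libraries 1 and 2 held the cerebellar gene Car8 at 1016 and 890.2 CPM and the other 4 at 4.08 to 6.80 CPM.

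All 33 transporter genes were counted in every kidney library and all passed the filter on low counts. With edgeR's quasi-likelihood test, adjusted by Benjamini-Hochberg over 15051 genes, no member passed 0.05 between SeMSNs and control, a comparison in which 0.00664% of all genes passed. Of the 33 members, 16 were higher and 17 lower, and their log2 fold changes had a median of −0.0070, beside 0.0023 over all genes tested. Slc13a1 and Slc4a4 were lower at an unadjusted p under 0.05 and no member was higher, against 3.59% and 2.52% of all genes. The same pair were the members whose groups did not overlap, both lower, which is 6.06% of the members; of all genes 13.5% did not overlap, 6.9% being lower. At an unadjusted p under 0.05, leaving out control library 3 gave 5 members higher (Slc34a3, Slc22a7, Slc22a8, Slc22a12 and Slc17a3) and 1 lower (Slc13a1), beside 3.18% and 3.25% of all genes, and still 0 past the adjusted threshold, which 0.00651% of genes passed. Leaving out any other kidney library gave 0 members higher and 1 to 3 lower at that unadjusted p in edgeR. The 3 came without SeMSNs library 2, where 2.83% of all genes were lower. DESeq2 also called no member, where it called 0.173% of all genes, and at an unadjusted p under 0.05 it had 3 members lower and none higher, beside 3.67% and 2.11% of all genes.

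The precision of these comparisons can be read from their intervals. For 30 of the 33 members the 95% interval of the fold change lay within a 2-fold change in either direction, and for 16 it lay within 1.5-fold. The 3 members with wider intervals were the phosphate transporter Slc34a3, the organic anion transporter Slc22a7 and the urea transporter Slc14a2. Members that missed the threshold are therefore not shown to be equal between the groups. With 3 libraries against 3, changes inside these intervals are not excluded. The intervals are not adjusted for the number of genes tested, so a member can miss the threshold although its interval excludes equal levels. Slc13a1 and Slc4a4 did so.

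**Figure D1:**
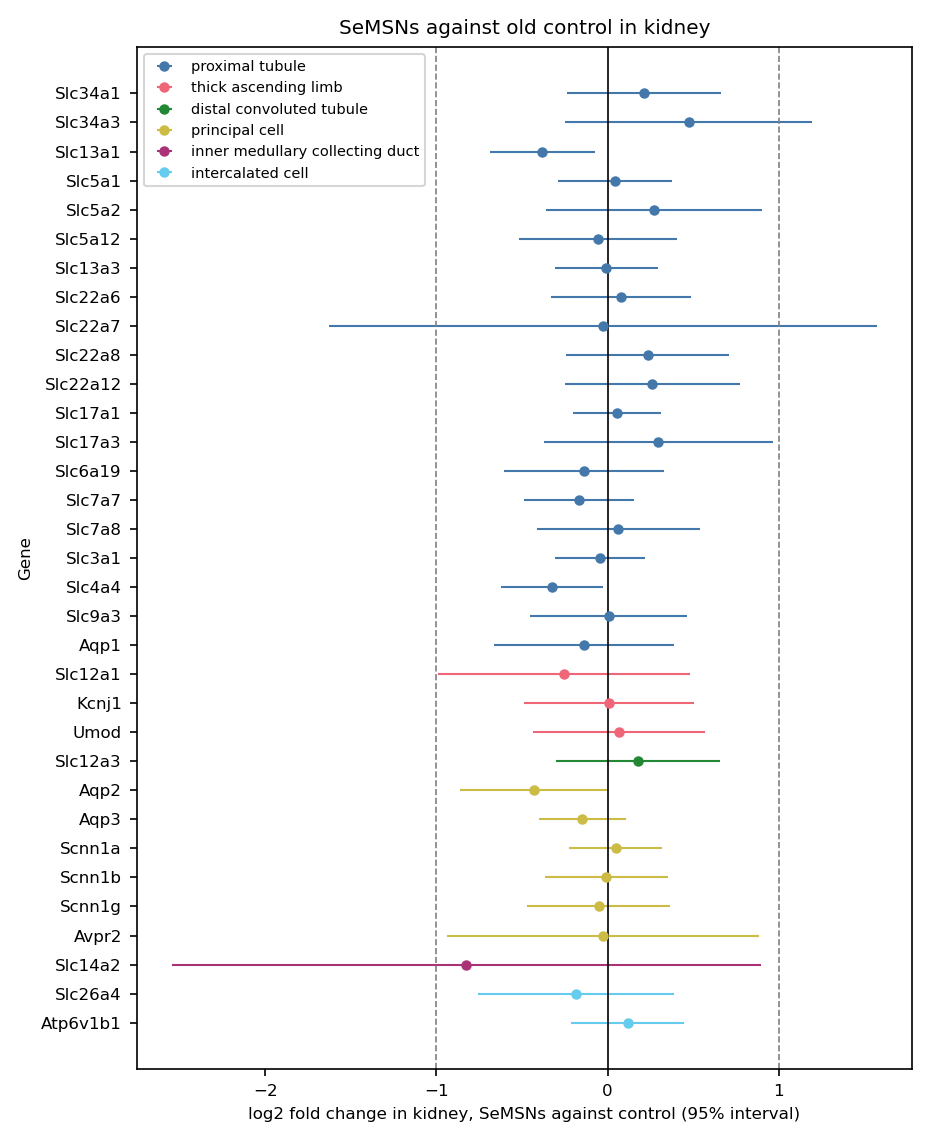
Log2 fold change of each transporter gene in kidney, SeMSNs against control (points), with 95% intervals (lines) from edgeR, coloured by nephron segment; the dashed lines mark a 2-fold change. The intervals of Slc13a1 and Slc4a4 lie below 0, and those of Slc34a3, Slc22a7 and Slc14a2 cross a dashed line.

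In control kidney the most abundant members were Umod and Slc34a1, at 1240.5 ± 165 and 1180.5 ± 225 FPKM (SD, n = 3; the authors' values, per length), which do not differ beyond their spread. Next came the water channel Aqp1 at 374 ± 115 FPKM, the amino acid transporter subunit Slc3a1 at 273 ± 28.6, the sodium chloride cotransporter Slc12a3 at 235 ± 29.5 and the urate transporter Slc22a12 at 221 ± 50.9, and neighbours among these 4 overlapped within 1 SD. In all, 10 members were above 100 FPKM and 29 were above 10 FPKM. The lowest were Slc14a2 at 8.24 ± 3.16, Slc22a7 at 7.79 ± 7.75, Slc34a3 at 7.53 ± 3.01 and the vasopressin receptor Avpr2 at 1.41 ± 0.860 FPKM. Together the 33 genes took 1.73% ± 0.0297 of counts in control and 1.84% ± 0.178 in SeMSNs kidney (SD, n = 3).

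Phosphate and sulfate transporters of the proximal tubule did not move as a group. Slc34a1, which encodes the main sodium phosphate cotransporter of the proximal brush border, was at 4044, 2745 and 4359 CPM in control libraries 1, 2 and 3 and at 4279, 4827 and 3824 CPM in SeMSNs libraries 1, 2 and 3. Control library 2 was the lowest of the 6 and SeMSNs library 2 the highest, and the groups overlapped. SeMSNs stood to control at a log2 fold change of 0.21 ± 0.194 (SE; 95% interval −0.24 to 0.66; adjusted p = 0.814 in edgeR), or 0.037 without control library 2. Slc34a3, its paralog in the same membrane, had the same lowest and highest libraries, at 28.1, 13.9 and 37.0 CPM in controls and at 32.9, 40.1 and 36.6 CPM with SeMSNs. The difference was 0.47 ± 0.311 on the log2 scale (SE; interval −0.25 to 1.19; adjusted p = 0.779 in edgeR), or 0.17 without control library 2 and 0.80 without control library 3.

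The sodium sulfate cotransporter Slc13a1 (ENSMUSG00000029700; GRCm38, chromosome 6, 24088283 to 24168092, minus strand), which retrieves sulfate from the filtrate, had the smallest p among the members. It was at 424, 556 and 502 CPM in the controls and at 411, 371 and 355 CPM with SeMSNs. Every SeMSNs library lay below every control, with the lowest control library, 1, close to the highest SeMSNs library, 1. Its log2 fold change was −0.38 ± 0.133 (SE; interval −0.69 to −0.074; adjusted p = 0.772 in edgeR), lower in 3 of 3 SeMSNs libraries but not past the adjusted threshold.

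The promoter of Slc34a1 is shown because this gene led the proximal tubule members in level and its promoter holds some of the motifs searched for. RefSeq promoters on GRCm38.p6, running from 250 bases before to 50 bases after an annotated start, were present for 27 of the 33 members, with 33 promoters in all. They were searched on both strands for GTTAAT, the core recognised by the proximal tubule factor HNF1, and for CAAAGTCCA of HNF4, TGACGTCA of the cAMP response element, AGATAA of GATA factors and TATAAA of the TATA box. The HNF1 core lay in 6 member promoters (those of Slc34a1, Slc22a6, Slc22a8, Slc3a1, Slc7a7 and Umod) and in 7.1% of all 32851 promoters. The TATA box letters lay in 6 member promoters and 13.6% of all, and the GATA letters in 6 and 11.2%. CAAAGTCCA was in 1 member promoter, that of Slc3a1, and 0.475% of all, and TGACGTCA was in 0 and 1.79%. A match is a description of letters, and binding was not measured; in the sequences printed here no 2 matches overlap. In the Slc34a1 promoter (chr13:55399398-55399697, plus strand, 46.7% GC), capitals mark the HNF1 core, which begins 89 bases before the start on the minus strand and 61 bases before it on the plus strand, and a TATA box match at base 17 of the transcript.
Slc34a1: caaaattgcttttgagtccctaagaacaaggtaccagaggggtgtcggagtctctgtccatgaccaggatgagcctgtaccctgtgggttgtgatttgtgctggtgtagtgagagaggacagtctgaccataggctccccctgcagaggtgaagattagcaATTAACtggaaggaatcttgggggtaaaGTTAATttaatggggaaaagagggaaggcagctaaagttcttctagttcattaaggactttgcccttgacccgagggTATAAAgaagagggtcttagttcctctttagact

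Among the glucose and organic acid transporters, the 2 sodium glucose cotransporters differed in which library was extreme. Slc5a2, the high-capacity transporter of the early proximal tubule, was at 292, 207 and 378 CPM in controls and at 294, 483 and 282 CPM with SeMSNs. Slc5a1, the high-affinity transporter of the late proximal tubule, was at 61.9, 65.6 and 58.7 CPM in controls and at 72.3, 52.1 and 67.5 CPM with SeMSNs. SeMSNs library 2 thus held the highest Slc5a2 and the lowest Slc5a1 of the 6. The ratio of Slc5a2 to Slc5a1 in FPKM was 3.22, 2.16 and 4.40 in controls and 2.78, 6.34 and 2.86 with SeMSNs, so that SeMSNs library 2 stood above the rest and the groups overlapped.

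The lactate transporter Slc5a12 and the dicarboxylate transporter Slc13a3 overlapped between the groups. Slc5a12 was between 115 and 172 CPM in controls and between 113 and 166 CPM with SeMSNs. Slc13a3 was between 578 and 743 CPM in controls and between 606 and 700.4 CPM with SeMSNs.

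Organic anion and urate transporters were mostly higher in the SeMSNs mean, in 5 of 6 genes, none past the threshold, and the median log2 fold change of the 6 was 0.16. Without control library 2 it was 0.045, with 4 of 6 higher, and without control library 3 it was 0.47, with 6 of 6 higher. Slc22a12, the urate exchanger of the brush border, was at 622, 474 and 841 CPM in controls and at 871, 633 and 818 CPM with SeMSNs. Its groups overlapped, and the log2 fold change was 0.26 ± 0.220 (SE; interval −0.25 to 0.77; adjusted p = 0.804 in edgeR), or 0.082 without control library 2. Slc22a8, a basolateral organic anion transporter, was at 477, 336 and 597 CPM in controls and at 570.1, 603 and 486 CPM with SeMSNs, with a log2 fold change of 0.23 ± 0.206 (SE; interval −0.24 to 0.71; adjusted p = 0.809 in edgeR), or 0.043 without control library 2. Control library 2 was the lowest of the 6 for Slc22a12 and Slc22a8 alike, and also for the basolateral transporter Slc22a6 (549 CPM) and the phosphate and urate transporter Slc17a3 (142 CPM).

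The rest of this group spread within the controls. Slc17a1, a brush border anion transporter, had the narrowest range of the proximal members, from 434 to 497 CPM in controls and from 451 to 518 CPM with SeMSNs. Slc22a7 had the widest, at 5.67, 7.43 and 36.2 CPM in controls and at 23.4, 8.48 and 16.1 CPM with SeMSNs, a 6.38-fold range over the 6 libraries. Its 95% interval ran from −1.62 to 1.57 on the log2 scale. Control library 3 was the highest for Slc22a7 and Slc22a6, and SeMSNs library 3 for Slc17a1 and Slc17a3.

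Transporters of amino acids kept close levels between the groups. Slc7a7, which passes cationic amino acids out of the cell into the blood, was at 164, 187 and 194 CPM in controls and at 145, 190 and 151 CPM with SeMSNs. SeMSNs library 2 lay within the control range and the other SeMSNs libraries below it, and the log2 fold change was −0.17 ± 0.138 (SE; interval −0.49 to 0.15; adjusted p = 0.803 in edgeR). The neutral amino acid transporter Slc6a19 of the brush border ranged from 374 to 519 CPM in controls and from 313 to 492 CPM with SeMSNs. Slc7a8, a basolateral exchanger, ranged from 119 to 188 CPM and from 133 to 196 CPM, and Slc3a1, the heavy chain for cystine uptake, from 615 to 678 CPM and from 564 to 673 CPM.

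Of the proximal acid, base and water carriers, Slc4a4 (ENSMUSG00000060961; GRCm38, chromosome 5, 88886818 to 89239653, plus strand) was lower with SeMSNs at an unadjusted p under 0.05. This gene encodes the electrogenic sodium bicarbonate cotransporter, which carries reclaimed bicarbonate across the basolateral membrane. It was at 987, 1063 and 1256 CPM in controls and at 901, 921 and 818 CPM with SeMSNs. Every SeMSNs library lay below every control. On the log2 scale it differed by −0.32 ± 0.128 (SE; interval −0.62 to −0.027; adjusted p = 0.772 in edgeR).

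The gene has alternative promoters, of which the downstream drives the form known from the proximal tubule; the deposited gene count adds up transcripts of all of them. Both RefSeq promoters are shown because the count cannot say which of them it comes from. Neither holds any of the motifs searched, so no letter is in capitals, and they differ in base composition, with 80.0% GC upstream (chr5:88887010-88887309, plus strand) and 48.3% GC downstream (chr5:89027716-89028015, plus strand, GRCm38.p6).
Slc4a4 upstream: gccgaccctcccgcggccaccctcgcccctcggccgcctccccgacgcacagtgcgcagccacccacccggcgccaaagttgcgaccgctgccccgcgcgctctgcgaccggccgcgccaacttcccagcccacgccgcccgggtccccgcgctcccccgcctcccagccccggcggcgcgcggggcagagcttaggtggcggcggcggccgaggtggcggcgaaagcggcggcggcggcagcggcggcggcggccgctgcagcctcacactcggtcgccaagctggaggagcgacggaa
Slc4a4 downstream: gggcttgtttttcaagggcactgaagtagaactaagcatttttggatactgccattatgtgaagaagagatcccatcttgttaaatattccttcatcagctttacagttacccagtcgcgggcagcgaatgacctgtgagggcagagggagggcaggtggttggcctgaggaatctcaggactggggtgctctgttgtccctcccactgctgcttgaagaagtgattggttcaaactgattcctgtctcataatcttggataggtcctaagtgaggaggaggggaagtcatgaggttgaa

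The apical sodium proton exchanger Slc9a3, which works in series with Slc4a4, was at 41.7, 47.5 and 44.9 CPM in controls and at 48.9, 31.4 and 54.4 CPM with SeMSNs. Its SeMSNs libraries lay on both sides of the controls. The water channel Aqp1, present in proximal tubule and descending thin limb, was at 1015, 1228 and 718 CPM in controls and at 847, 729.9 and 1113 CPM with SeMSNs. Control library 3 and SeMSNs library 2 were its lowest libraries.

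**Figure D2:**
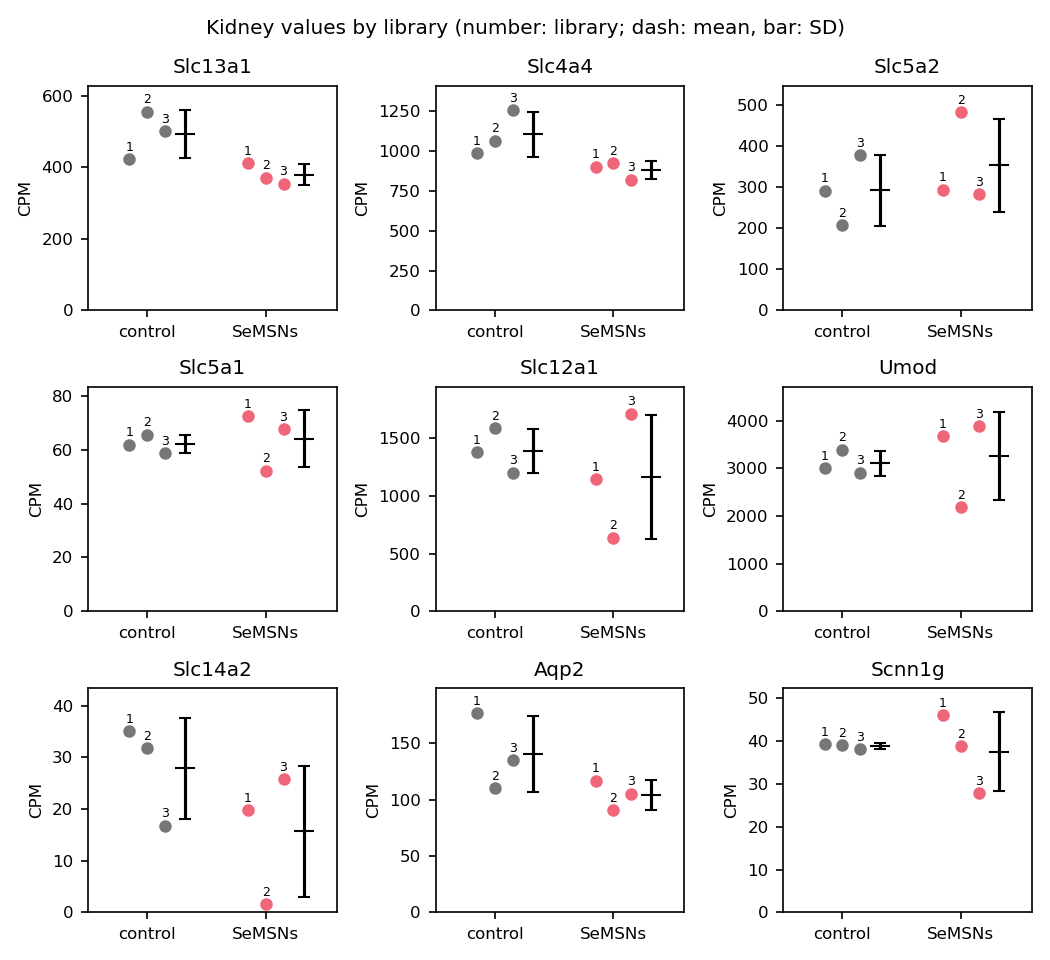
CPM of 9 transporter genes in each kidney library (points, numbered by library), with the mean (dash) and SD (bar) of the 3 control and 3 SeMSNs libraries on axes from 0. Slc13a1 and Slc4a4 are lower in each SeMSNs library than in any control, and SeMSNs library 2 is the lowest for Slc5a1, Slc12a1, Umod, Slc14a2 and Aqp2 and the highest for Slc5a2.

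The thick ascending limb was led by Umod, which encodes uromodulin, the most abundant protein of normal urine. Umod was at 3004, 3392 and 2910.5 CPM in controls and at 3675, 2189.8 and 3888 CPM with SeMSNs. SeMSNs libraries 1 and 3 lay above all controls and SeMSNs library 2 below all of them. As a log2 fold change this was 0.068 ± 0.217 (SE; interval −0.44 to 0.57; adjusted p = 0.950 in edgeR), and its sign turned to −0.081 without SeMSNs library 3 and −0.030 without SeMSNs library 1, while it was 0.28 without SeMSNs library 2. The Umod promoter, shown as that of the member with the highest FPKM, lies at chr7:119479213-119479512 on the minus strand of GRCm38.p6 (47.3% GC), and capitals mark an HNF1 core that begins 202 bases before the start.
Umod: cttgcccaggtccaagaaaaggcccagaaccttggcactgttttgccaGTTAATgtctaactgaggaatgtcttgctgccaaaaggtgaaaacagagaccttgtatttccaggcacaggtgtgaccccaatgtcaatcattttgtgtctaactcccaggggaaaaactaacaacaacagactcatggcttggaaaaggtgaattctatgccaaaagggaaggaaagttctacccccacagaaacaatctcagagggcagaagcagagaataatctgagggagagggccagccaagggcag

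The other thick limb members had the same low library. Slc12a1, the furosemide-sensitive cotransporter that drives salt uptake there, was at 1379.7, 1588 and 1201 CPM in controls and at 1144, 639 and 1714 CPM with SeMSNs. The potassium channel Kcnj1, which returns potassium to the lumen for that cotransporter, was at 251, 307 and 219 CPM in controls and at 296, 183 and 303 CPM with SeMSNs. For both, SeMSNs library 2 was the lowest of all 6. The ratio of Umod to Slc12a1 in FPKM was 6.44, 6.32 and 7.17 in controls and 9.51, 10.2 and 6.71 with SeMSNs, so that SeMSNs libraries 1 and 2 lay above the controls and SeMSNs library 3 among them.

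Slc12a3, the thiazide-sensitive cotransporter of the distal convoluted tubule, was at 816, 646 and 919 CPM in controls and at 1156, 819 and 719 CPM with SeMSNs. SeMSNs library 1 lay above the rest and the other SeMSNs libraries within the control range. Its log2 fold change was 0.18 ± 0.207 (SE; interval −0.30 to 0.66; adjusted p = 0.848 in edgeR), and it was −0.046 without SeMSNs library 1. In FPKM, the ratio of Slc12a1 to Slc12a3 ran from 0.591 to 1.11 in controls and from 0.352 to 1.08 with SeMSNs.

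In principal cells, 1 of 6 members was higher and 5 were lower in the SeMSNs mean, none past the threshold; their median log2 fold change was −0.039, or 0.025 without SeMSNs library 3. The vasopressin-regulated water channel Aqp2 (ENSMUSG00000023013; GRCm38, chromosome 15, 99579056 to 99584545, plus strand) had the third smallest p of the members. It was at 177, 110.2 and 135 CPM in controls and at 117, 90.8 and 105 CPM with SeMSNs. Control library 2 lay below SeMSNs library 1, so the groups overlapped. The difference was −0.43 ± 0.186 on the log2 scale (SE; interval −0.86 to 0.0016; adjusted p = 0.772 in edgeR), or −0.23 without control library 1.

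The Aqp2 promoter is shown because the gene is the best known transcriptional target of vasopressin in the duct, through cAMP. The window searched (chr15:99578806-99579105, plus strand, GRCm38.p6, 56.0% GC) holds a GATA match on the minus strand, in capitals, that begins 202 bases before the start, and not the exact letters TGACGTCA. Shortly before the GATA match it holds agacgtca, which differs from TGACGTCA only in its first letter. The search took exact matches only, so it does not show that a cAMP response element is absent.
Aqp2: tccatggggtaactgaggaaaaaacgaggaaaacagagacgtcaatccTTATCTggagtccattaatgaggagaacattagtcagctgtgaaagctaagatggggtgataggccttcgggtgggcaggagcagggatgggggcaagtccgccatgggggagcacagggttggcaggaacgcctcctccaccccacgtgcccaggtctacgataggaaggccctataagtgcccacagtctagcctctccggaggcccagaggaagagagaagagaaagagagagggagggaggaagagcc

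Aqp3, the basolateral channel through which that water leaves, was at 84.5, 79.1 and 86.8 CPM in controls and at 80.6, 77.2 and 68.5 CPM with SeMSNs. Its groups overlapped in a narrow range, and the log2 fold change was −0.15 ± 0.110 (SE; interval −0.40 to 0.11; adjusted p = 0.795 in edgeR). Avpr2, the receptor that passes the vasopressin signal to the water channels, was the lowest member at 14.1, 7.39 and 4.12 CPM in controls and at 9.44, 7.06 and 8.68 CPM with SeMSNs, with the SeMSNs libraries inside the control range.

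In the epithelial sodium channel, the subunit genes Scnn1b and Scnn1g had the same order of SeMSNs libraries. Scnn1b was at 39.8, 40.1 and 40.4 CPM in controls and at 47.6, 40.2 and 31.8 CPM with SeMSNs. Scnn1g was at 39.2, 39.0 and 38.1 CPM in controls and at 45.9, 38.7 and 27.7 CPM with SeMSNs. The controls of both genes were almost level, while SeMSNs library 1 was the highest and SeMSNs library 3 the lowest of all 6. The third subunit, Scnn1a, was at 119, 134 and 135 CPM in controls and at 149, 128 and 124 CPM with SeMSNs, with its lowest value in control library 1. The ratio of Scnn1b to Scnn1g in FPKM stayed between 0.771 and 0.807 in controls and between 0.788 and 0.872 with SeMSNs, and the log2 fold changes of the 3 subunits lay between −0.051 and 0.047.

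The inner medullary urea transporter Slc14a2, which lets urea into the papilla, was the member that varied most. It was at 35.1, 31.8 and 16.8 CPM in controls and at 19.8, 1.54 and 25.8 CPM with SeMSNs, a 22.8-fold range over the 6 libraries. The value in SeMSNs library 2 came from 26 counts, while the other 5 libraries held 293 to 743. The log2 fold change was −0.82 ± 0.742 (SE; interval −2.55 to 0.90; adjusted p = 0.812 in edgeR), and it was −0.30 without SeMSNs library 2, so that this library set most of the estimate.

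Intercalated cells were represented by Slc26a4, the chloride bicarbonate exchanger pendrin, and Atp6v1b1, a subunit of the proton pump. Slc26a4 was at 61.3, 59.6 and 82.4 CPM in controls and at 68.3, 72.1 and 38.4 CPM with SeMSNs. SeMSNs library 3 lay below all other libraries, and the log2 fold change was −0.19 ± 0.247 (SE; interval −0.76 to 0.39; adjusted p = 0.867 in edgeR), or 0.051 without that library. Atp6v1b1 was at 87.7, 86.6 and 82.7 CPM in controls and at 107.7, 95.4 and 75.8 CPM with SeMSNs, with SeMSNs library 3 again the lowest.

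Set side by side, the member means of the segments differed in which kidney library was lowest. As the mean of log2 CPM over the 3 thick limb members, relative to the control mean, SeMSNs library 2 was at −0.70, while the controls were between −0.17 and 0.20 and SeMSNs libraries 1 and 3 at 0.061 and 0.29. For Slc14a2 the same quantity was −4.02 in SeMSNs library 2 and between −0.66 and 0.40 in the others. The 20 proximal members were at 0.052 in that library, inside the control range of −0.20 to 0.27, and the 6 principal cell members at −0.14, beside −0.13 to 0.19 in controls. Intercalated members were lowest in SeMSNs library 3, at −0.49, against −0.077 to 0.18 in the other 5. Marker lists outside the set were lowest elsewhere. The mean of 6 other thick limb markers was −0.42 in control library 3, −0.22 in SeMSNs library 2 and 0.0061 to 0.21 in the rest. That of 7 other intercalated markers was −0.32 in control library 3, −0.22 in SeMSNs library 3 and 0.15 to 0.35 in the rest.

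**Figure D3:**
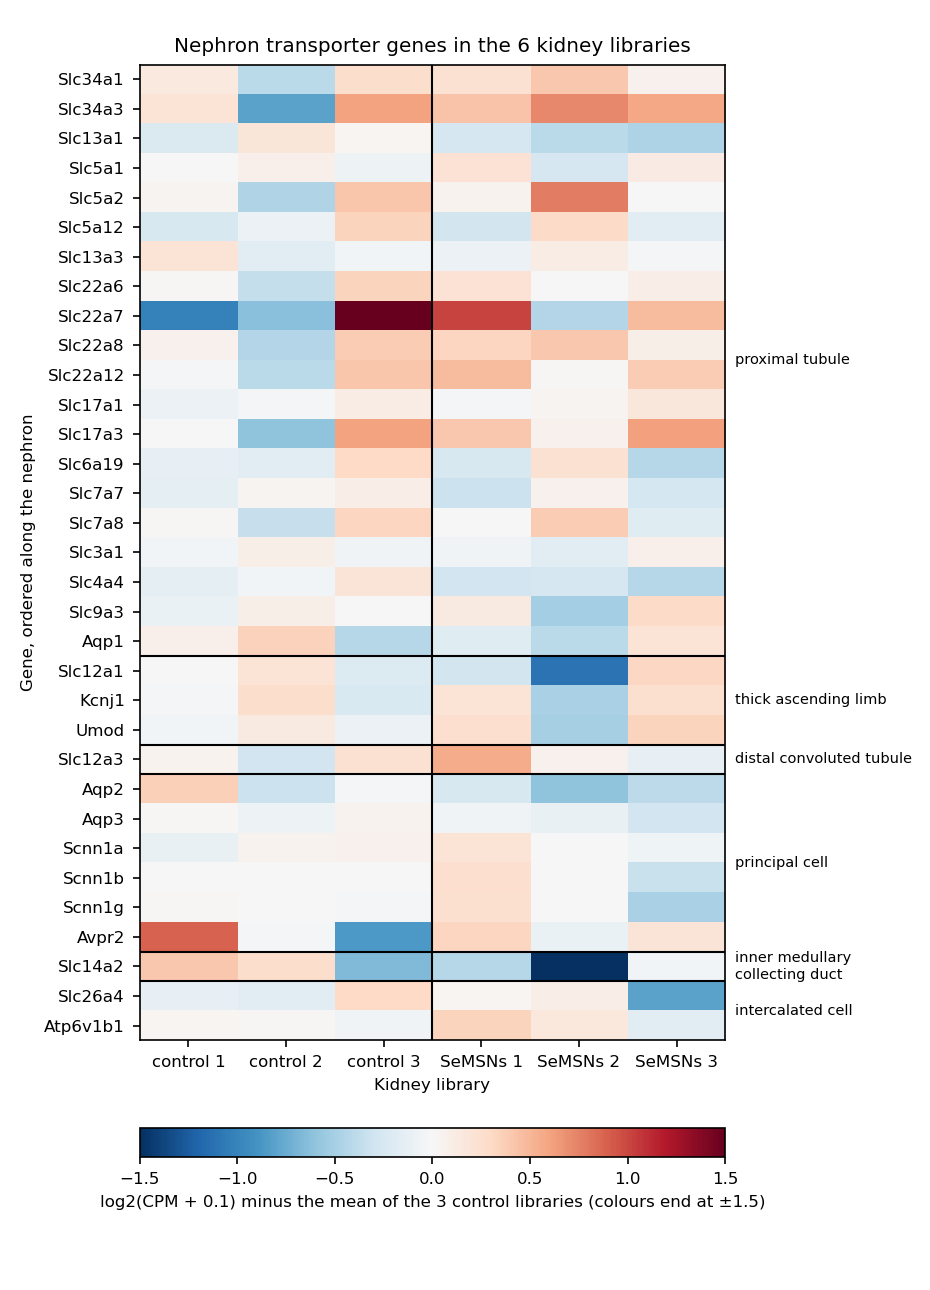
Each transporter gene (rows, in nephron order) in each kidney library (columns), coloured by log2(CPM + 0.1) minus the mean of the 3 controls, with colours ending at ±1.5. SeMSNs library 2 is low from Slc12a1 to Umod and at Slc14a2, control library 2 is low for Slc34a1, Slc34a3, Slc5a2, Slc22a8 and Slc17a3, and SeMSNs library 3 is low for Slc26a4.

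Over single genes, SeMSNs library 2 was the lowest of the 6 libraries for 8 members and the highest for 5. Those at their lowest there were Slc5a1, Slc3a1, Slc9a3, Slc12a1, Kcnj1, Umod, Aqp2 and Slc14a2, and those at their highest were Slc34a1, Slc34a3, Slc5a2, Slc22a8 and Slc7a8. Control library 2 was the lowest for 10 members, 9 of them proximal, and control library 3 the highest for 8, 6 of them proximal. The range over the 6 libraries had a median of 0.75 on the log2 scale for the members and 0.66 for all genes tested, or 0.50 for the 9561 genes at or above the level of the lowest member.

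Genes outside the set, picked as markers of cortex and medulla, were read in the same libraries. The 16 tested genes of 17 medulla and papilla markers had a mean of −1.11 in SeMSNs library 2 and of −0.45 in control library 2, and lay between −0.16 and 0.25 in the other 4 libraries. Among the most abundant of them, the inositol transporter Slc5a3 was at 241, 259 and 252 CPM in controls and at 264, 123 and 298 CPM with SeMSNs, and Cryab, a small heat shock protein of the medulla, ranged from 82.2 to 148 CPM in controls and from 76.9 to 126 CPM with SeMSNs. The keratin gene Krt7 ranged from 97.4 to 113 CPM in controls and from 69.7 to 99.4 CPM with SeMSNs, so that it was not low in the libraries where the list mean was low. Summed FPKM of the list was 165 to 221 in controls and 120.3 to 200.4 with SeMSNs, and its lowest gene, Crabp1, had at most 0.189 CPM. The 13 cortical proximal markers had means from −0.13 to 0.17 in controls and from −0.10 to 0.12 with SeMSNs, with a summed FPKM of 9748 to 14960.0 and 12410.0 to 14700.0.

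Markers of tissue next to the kidney varied with the medulla list. The 7 tested of 10 markers of urothelium, adrenal, fat and liver had means of −1.27 in control library 2 and −0.81 in SeMSNs library 2, and lay between −0.42 and 1.43 in the other 4. Upk1a, a urothelial plaque gene, was at 2.55, 1.49 and 3.72 CPM in controls and at 6.17, 1.30 and 2.64 CPM with SeMSNs, and the fat droplet gene Plin1 was at 0.993, 0 and 1.03 CPM and at 6.02, 0.0593 and 0.141 CPM. Summed FPKM of that list was 10.5 to 16.0 in controls and 13.4 to 24.6 with SeMSNs, and the adrenal gene Cyp11b2 was at 0 in all 6. The part of such tissue in the transporter levels was not tested.

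These marker values lie beside the transporter results as follows. With the medulla marker mean as a covariate in edgeR, 0 members were called, as were 0 genes of 15051 (0.0%), and at an unadjusted p under 0.05 there were 2 members higher (2.28% of all genes) and 1 lower (2.71%). These were Slc22a12 at 0.53 ± 0.175, Slc17a3 at 0.66 ± 0.258 and Slc13a1 at −0.41 ± 0.152 (log2, SE). Slc4a4 was at −0.33 ± 0.153 in that fit (adjusted p = 0.952) and was no longer at an unadjusted p under 0.05. Leaving out SeMSNs library 2, edgeR called 0 members, while 0.0261% of all genes passed, and Slc13a1 and Slc4a4 were at −0.37 ± 0.150 and −0.36 ± 0.139 (adjusted p = 0.912 for both).

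Marker lists of other cell types were read in the same libraries. The 8 macrophage markers had means from −0.14 to 0.14 in controls and from −0.55 to −0.43 with SeMSNs (log2, relative to the control mean), and a summed FPKM of 126 to 150 and 101 to 121. Of the 8, 7 were lower and 1 higher, 5 of them lower at an unadjusted p under 0.05, which 3.59% of all genes were; 0 passed in edgeR, and DESeq2 called 1, Adgre1, with an adjusted p of 0.0204. In edgeR their log2 fold changes ran from −1.34 (Adgre1) to 0.032 (Csf1r). The 7 endothelial markers were at 0.19, 0.080 and −0.27 in controls and −0.36, −0.27 and −0.33 with SeMSNs. Of these 7, 5 were lower and 2 higher, 4 lower at an unadjusted p under 0.05 beside the same 3.59% and 0 past the threshold in edgeR or DESeq2, and the log2 fold changes ran from −0.60 to 0.057 (Ehd3). The 6 tubular injury markers were at −0.58, −0.20 and 0.78 in controls and from −1.12 to −0.58 with SeMSNs, and a summed FPKM of 212 to 273 and of 190 to 198. All 6 were lower, 3 of them at an unadjusted p under 0.05 in edgeR, beside the same 3.59% of all genes. Of the 6, 0 passed the threshold in edgeR or DESeq2. Podocyte markers ranged from −0.19 to 0.13 and from −0.36 to 0.24. No defining gene of these 4 lists was at 0 in all libraries. The part of these cell types in the lower Slc13a1 and Slc4a4 was not tested.

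A list of 68 other nephron transporters and regulators, all tested in kidney, served as the background of the pathway. Of these, 32 were higher and 36 lower in the SeMSNs mean, the median log2 fold change was −0.021, and 0 passed the threshold in edgeR; at an unadjusted p under 0.05, 1 was higher and 3 were lower, shares near the 2.52% and 3.59% of all genes. Slc47a1, which extrudes organic cations into the lumen, was at 453, 401 and 534 CPM in controls and at 584, 671 and 590 CPM with SeMSNs. The groups did not overlap, and the difference on the log2 scale was 0.41 ± 0.136 (SE; adjusted p = 0.772 in edgeR). The glucose exit carrier Slc2a2 and the proton pump subunit Atp6v0a4 were at −0.31 ± 0.119 and −0.32 ± 0.135, and Slc22a30 was at 0.63 ± 0.287, each with an adjusted p of 0.772 in edgeR.

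The potassium channel subunit Kcnj16 of the same list had an uneven pattern. It was at 656, 669 and 766 CPM in controls and at 59.5, 516 and 60.6 CPM with SeMSNs. SeMSNs libraries 1 and 3 were far below the controls, and SeMSNs library 2 somewhat below them. With all libraries the log2 fold change was −1.72 ± 0.791 (SE; adjusted p = 0.772 in edgeR). Without SeMSNs library 2 it was −3.54 ± 0.132 and passed, with an adjusted p of 0.00146 in edgeR, where 0.0261% of all genes passed. That fit leaves out the SeMSNs library nearest to the controls for this gene, so the call follows from the choice and adds nothing to the values above.

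Outside the kidney most members were near 0. In control brain, 6 of the 33 were above 1 FPKM and 19 below 0.1 FPKM. In control gastrocnemius, 3 were above 1 FPKM and 27 below 0.1 FPKM. Avpr2 had no count in any brain library, and Scnn1g, Avpr2, Slc26a4 and Atp6v1b1 had none in any gastrocnemius library, which at these depths allows up to 3 counts per library. The amino acid exchanger Slc7a8 was the most evenly shared member, at 37.1 ± 6.49 FPKM in control kidney, 19.1 ± 4.56 in brain and 8.54 ± 1.78 in gastrocnemius (SD, n = 3).

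Slc4a4 was at 17.5 ± 4.75 FPKM in control brain, where it is known from astrocytes, and at 1.45 ± 0.763 in gastrocnemius, beside 86.2 ± 7.24 in kidney. Aqp1 was at 156 ± 94.2 FPKM in gastrocnemius, where capillary endothelium is its known site, at 2.09 ± 0.482 in brain and at 374 ± 115 in kidney. The other members above 1 FPKM in control brain were Slc22a8, known from the choroid plexus and the vessels of the brain, at 3.99 ± 0.916, Slc13a3 at 1.39 ± 0.846 and Slc26a4 at 1.21 ± 0.956 FPKM. Kidney was the highest of the 3 tissues for each of the 33 genes.

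**Figure D4:**
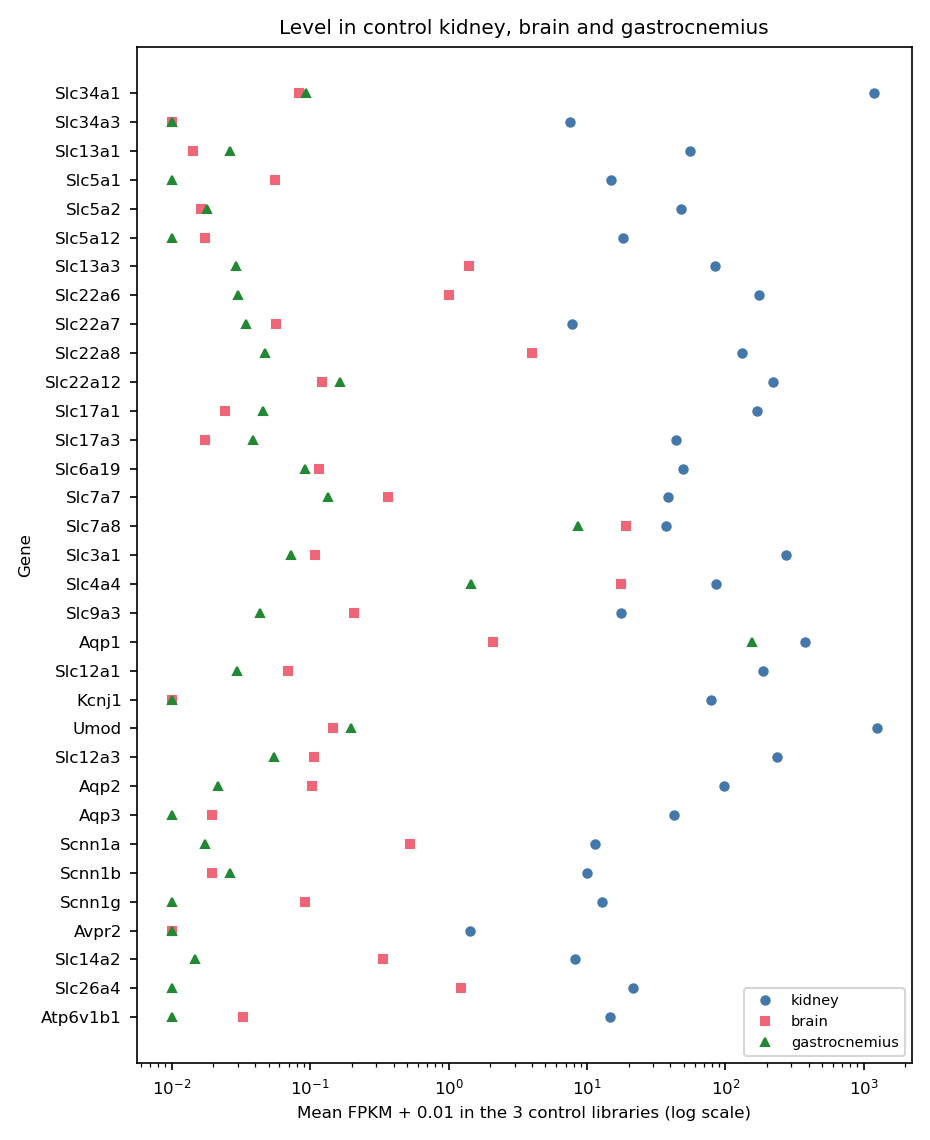
Mean FPKM + 0.01 of each transporter gene in the 3 control libraries of kidney, brain and gastrocnemius on a log axis. Kidney values are the highest for every gene, Slc7a8 and Slc4a4 reach 19.1 and 17.5 FPKM in brain, and Aqp1 reaches 156 FPKM in gastrocnemius.

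In brain, 12 members passed the filter on low counts and 0 passed the adjusted threshold in edgeR, where 0.00622% of 16082 genes did. At an unadjusted p under 0.05, 1 was higher and 1 lower, against 7.4% and 8.03% of all genes. Slc14a2 was at 1.12, 1.26 and 1.00 CPM in controls and at 0.487, 0.386 and 0.435 CPM with SeMSNs. Its groups did not overlap, with a log2 fold change of −1.35 ± 0.316 (SE; adjusted p = 0.255 in edgeR). These values came from few counts, 20, 21 and 18 in controls and 9, 7 and 8 with SeMSNs. Slc6a19 (−0.80 ± 0.399, SE, adjusted p = 0.379 in edgeR) did not overlap in CPM by a margin that scaling made. Its control library 2 was at 0.7172 CPM from 12 counts and SeMSNs library 2 at 0.7167 CPM from 13 counts. Counted this way, 2 of 12 were lower without overlap, beside 10.9% of all genes. Slc22a8 was at −0.37 ± 0.204 (adjusted p = 0.415).

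Slc9a3 in brain followed individual libraries. It was at 0.562, 0.657 and 0.278 CPM in controls and at 3.95, 3.75 and 0.653 CPM with SeMSNs. SeMSNs libraries 1 and 2, which held the cerebellar gene Car8, were high and SeMSNs library 3 lay in the control range. The log2 fold change was 2.47 ± 0.727 (SE; adjusted p = 0.260 in edgeR), and DESeq2 called it, with an adjusted p of 0.0362, where 1.85% of all genes were called higher by DESeq2. Slc5a1 had the same shape, at 0.337, 0.239 and 0 CPM in controls and at 9.48, 6.84 and 0.163 CPM with SeMSNs, and so did Slc13a1, at no more than 0.0562 CPM in controls and at 2.11, 1.16 and 0.163 CPM with SeMSNs, and Scnn1g, at 0.179 to 0.333 CPM and at 2.06, 1.98 and 0.163 CPM. The last 3 genes did not pass the filter on low counts with all libraries.

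Leaving out SeMSNs brain library 3, the SeMSNs library without this pattern, edgeR called 5 members higher, Slc9a3, Slc4a4 and the 3 genes just named, in a fit where 8.73% of 16546 genes were called higher. The 3 entered that fit only through the libraries in which they were high, so their calls add nothing to the values above. Slc4a4 was at 0.87 ± 0.207 in that fit (log2, SE; adjusted p = 0.0380 in edgeR) and at 0.56 ± 0.358 with all libraries (adjusted p = 0.473 in edgeR). For Slc4a4 and Slc9a3 the library left out held the lowest SeMSNs value. Their calls in that fit therefore follow from the choice of library and also add nothing. With all libraries Slc4a4 was at 232, 162 and 270 CPM in controls and at 389, 419 and 171 CPM with SeMSNs, so its high values also lay in the libraries with Car8. In a fit of all 18 libraries Slc5a1 and Slc9a3 were called higher in brain, beside 0.6% of genes; there Slc5a1 passed the filter through its kidney counts. The part of the sampled brain region in these members was not tested.

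Aqp1 in brain followed another set of libraries. It was at 4.22, 5.86 and 6.61 CPM in controls and at 6.82, 0.772 and 0.870 CPM with SeMSNs, so that SeMSNs libraries 2 and 3 were low. The choroid plexus gene Ttr was at 463 to 644 CPM in controls and at 813, 155 and 13.2 CPM with SeMSNs, low in the same libraries. The edgeR log2 fold change of Aqp1 was −0.98 ± 0.824 (SE; adjusted p = 0.587).

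In gastrocnemius, 4 members passed the filter and 0 were called in edgeR, where 0.0228% of 13150 genes were; 0 had an unadjusted p under 0.05, beside 13.0% of all genes. Aqp1 was at 223, 324 and 637 CPM in controls and at 429.6, 332 and 408 CPM with SeMSNs, and control libraries 1 and 3 were its extremes. The endothelial gene Pecam1 was at 75.9, 107 and 100.5 CPM in controls and at 76.3, 56.9 and 71.4 CPM with SeMSNs. Its SeMSNs libraries had the same order as those of Aqp1, and its controls had another order. Cdh5, also endothelial, was at 88.9, 90.5 and 101.9 CPM in controls and at 86.3, 65.5 and 94.8 CPM with SeMSNs. The controls of Cdh5 had the same order as those of Aqp1, and its SeMSNs libraries had another order. SeMSNs library 2 was the lowest SeMSNs library for both genes. The part of endothelium in the Aqp1 values was not tested. Slc7a8 ranged from 29.2 to 38.3 CPM in controls and from 20.3 to 35.8 CPM with SeMSNs (log2 fold change −0.26 ± 0.227, SE, adjusted p = 0.649 in edgeR). Slc4a4 ranged from 11.6 to 27.3 CPM and from 16.0 to 23.9 CPM (0.18 ± 0.315, adjusted p = 0.839).

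The difference of the SeMSNs effect between tissues was tested in an edgeR fit of all 18 libraries, and is given here for the members that passed the filter in the second tissue alone, since the others entered that fit through their kidney counts. Between kidney and brain, 0 of these 12 members were called, as were 0 of 18001 genes. At an unadjusted p under 0.05 the effect was lower in kidney for 1 of the 12, Slc9a3, and higher for 0, beside 3.91% and 3.74% of all genes. Slc9a3 differed by −2.41 ± 0.669 (log2, SE; adjusted p = 0.384), and its brain values followed the libraries with Car8. Between kidney and gastrocnemius, 0 of 4 members were called, where 0.0111% of genes were, and 0 had an unadjusted p under 0.05, beside 6.57% of all genes. The smallest p of these 4 belonged to Slc4a4, at −0.50 ± 0.452 (log2, SE; adjusted p = 0.892).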

How the data were processed

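The authors deposited 1 table with raw counts for each gene in each library, in whole numbers, and FPKM values. The deposited FPKM equals the count over a fixed gene length and the sum of the library, to within a fraction of 7.21e-05 for the 17773 genes where the length could be computed. The genome build was GRCm38, per the submitters' processing notes; the sources used here do not give the aligner, the counting tool or the strand setting. For 7 members (Slc34a1, Slc5a2, Slc22a12, Slc7a7, Slc3a1, Umod and Avpr2) an exon overlaps a gene on the other strand, so their counts may include reads of that partner.

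Each tissue had its own edgeR fit (version 4.0.16, in R 4.3.3), with TMM scaling, glmQLFit and glmQLFTest after filterByExpr (count 10, total 15), Benjamini-Hochberg adjustment and a threshold of 0.05. The SE of a log2 fold change was obtained from its size and the F statistic. List means use log2 CPM with a prior count of 2. The fit was tested on simulated data. Alternatives were DESeq2 1.42.0, limma 3.58.1 on log2(FPKM + 1) or log2(FPKM + 0.1), other filters and scaling, a replicate block, the medulla marker mean as covariate, 1 fit of all 18 libraries, and leaving out each library.

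The members and lists were chosen with earlier results of these data known. Statistics were printed for the 10 members with the smallest kidney p and the member with the highest control FPKM of each segment, for up to 6 other transport genes by p, for up to 4 medulla markers by level, and in the other tissues for up to 4 members by p and those above 1 FPKM. Further per-library values, ratios, 1 interval (Slc22a7), and the cerebellar, choroid plexus and tissue genes, were chosen after values were seen. Kidney replicates were distinct libraries, with chi-square per degree of freedom from 17.6 to 45.7 over 6 pairs. SeMSNs library 3 carries the number 4 in the submitters' library names. Counting limits cover counting error only. Values of 2 genes that this naming rule also picked are not reported here.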

Additional observations from a re-analysis of the deposited data

How the results depend on the processing

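In kidney, 0 members passed in edgeR under every alternative, including each fit that left out a library. In brain, DESeq2 called 1 member (Slc9a3) and 1 fit of all 18 libraries called 2 (Slc5a1 and Slc9a3). Leaving out a brain library gave 0 to 5 members, with 5 only without SeMSNs library 3. Of these, 3 entered that fit through the libraries where they were high. Slc9a3 and Slc4a4 had their lowest SeMSNs value in the library left out. In gastrocnemius all alternatives gave 0. Of the 68 other transport genes in kidney, leaving out a library gave 0 to 1 called, with 1 (Kcnj16) without SeMSNs library 2, its highest SeMSNs library. When a library was left out, the kidney log2 fold change of Umod ran from −0.081 to 0.28 (−0.030 without SeMSNs library 1), that of Slc12a3 from −0.046 to 0.32 and that of Slc26a4 from −0.35 to 0.051; the other 10 of the 13 members picked by the naming rule kept their sign in all 15 alternatives, but not their size. Over these, Slc34a1 ran from 0.037 to 0.34, Slc34a3 from 0.17 to 0.80, Slc22a8 from 0.043 to 0.44 and Slc22a12 from 0.082 to 0.53, each lowest without control library 2. Aqp2 ran from −0.58 to −0.23, Aqp3 from −0.20 to −0.082, Slc7a7 from −0.30 to −0.093, Slc14a2 from −1.39 to −0.30, Slc13a1 from −0.48 to −0.29 and Slc4a4 from −0.40 to −0.22. The lowest adjusted p of any of the 13 over all alternatives was 0.599, for Slc13a1 by DESeq2. Segment medians turned sign when a library was left out in the thick limb (−0.11 to 0.21), principal cells (−0.18 to 0.025), intercalated cells (−0.15 to 0.15) and Slc12a3, and not in the proximal tubule (0.0059 to 0.12) or Slc14a2 (−1.38 to −0.30).

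Kidney libraries with the same number in the sample titles had residual correlations from 0.0218 to 0.0722, 0 over 0.1. Of 6 libraries, 3 correlated best with their own title number, so the numbers were not treated as pairs. Here and in the replicate block, control library 3 was matched to SeMSNs library 3, which carries the number 4 in the library names. With the replicate block, 0 members were called in kidney, brain and gastrocnemius, and 0 genes in kidney instead of 1.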
